A study of Mus musculus with 20 samples.

Results

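Cholesterol synthesis, uptake and efflux in mouse liver was described here through 28 genes, taken by gene symbol from the 37681 genes listed in each table of counts. They cover 17 enzymes that build cholesterol, 4 sterol sensing genes, 5 genes of intracellular transport, storage and receptor turnover, and 2 exporters. Of the 28, 27 reached 5 reads in a minimum of 5 libraries of any table and were tested among the 15578 genes that passed the same filter. The remaining gene, Hmgcs1, which makes the precursor of mevalonate, had 2 rows in each table, and both rows were listed at 0 in every library, so it has no value here.

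The samples were livers of 10 male C57/BL6 mice (C57/B6J in the growth protocol) aged 12 weeks, 5 given IL-1β at 20 µg/kg and 5 given saline, the latter called untreated, all taken 4 h after the injection. IL-1β is a cytokine released early in inflammation, to which hepatocytes respond. RNA of each mouse was sequenced once with Illumina and once with Ion Torrent, and each set of reads was aligned with 3 methods (STAR, GSNAP, and STAR followed by Bowtie2), which gave 6 tables of 10 libraries. An Illumina library held 10568530 to 12008799 counts and an Ion Torrent library 12199528 to 16439683. Levels below are CPM, counts scaled to a library size of 1000000 after TMM scaling, an edgeR step that evens out the composition of libraries. Values are from the Illumina libraries aligned with STAR unless another table is named, and each group has n = 5 mice. Fold changes are edgeR estimates with standard errors (SE), and a gene was called at an edgeR adjusted p below 0.05 over all genes tested.

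The liver makes cholesterol from acetyl-CoA through mevalonate, squalene and lanosterol. The transcription factor SREBP2, encoded by Srebf2, switches on most of these enzymes when sterols in the endoplasmic reticulum run low. Scap carries it to the Golgi for activation and the Insig proteins hold it back. Cholesterol that enters with lipoproteins leaves the lysosome through Npc2 and Npc1, and ABC transporters export it from the cell.

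Enzymes of cholesterol synthesis were mostly higher in IL-1β-treated livers, while the lysosomal exporter Npc1 and the sterol carrier Stard4 were lower and the exporter Abca1 was higher. Of the 27 tested members, 11 were higher, which is 40.7%, against 22.7% of all genes tested. A further 4, or 14.8%, were lower, against 22.9% of all genes tested. The other 12 were not called. All genes tested were not matched to the members by read level, and 500 of them had no read in these libraries. The members were also chosen with earlier results of these data known. The median log2 fold change of the 27 was 0.16, and that of all genes tested was 0.00. The median size of the change without its sign was 0.59 for the 27 and 0.47 for all genes tested. Of the 16 enzymes tested, 9 were higher, 1 was lower and 6 were not called, with a median log2 fold change of 0.55.

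**Figure D1:**
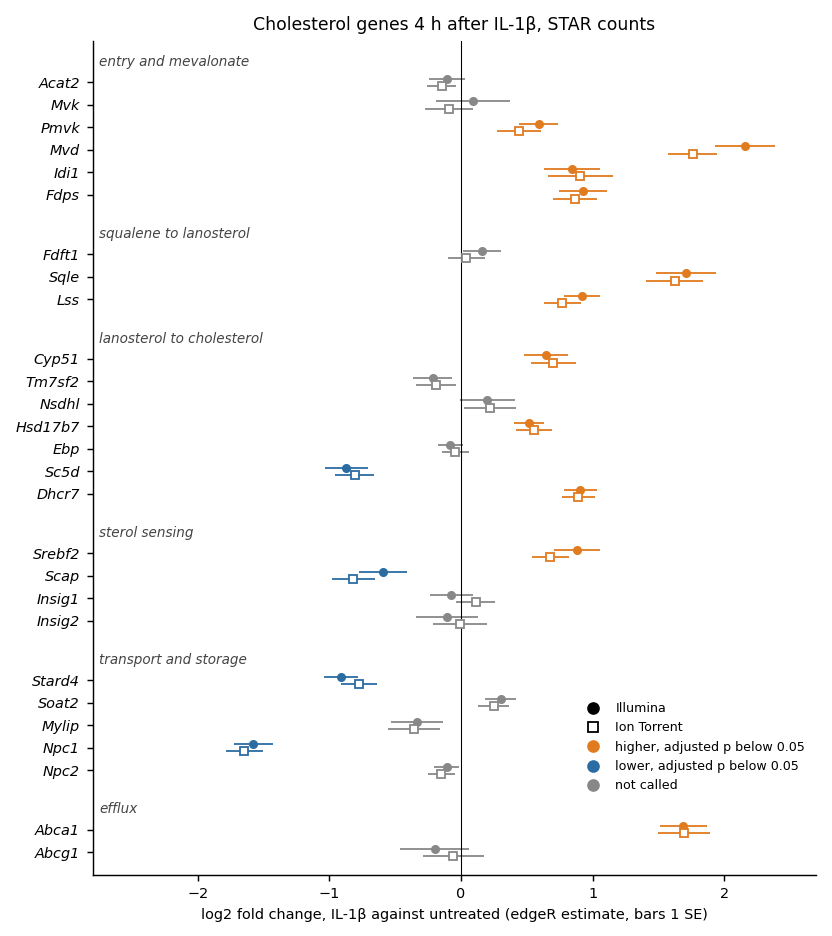
Each row is 1 of the 27 tested genes, grouped by role, with the log2 fold change of IL-1β-treated against untreated livers on the horizontal axis, filled circles for Illumina, open squares for Ion Torrent and bars of 1 SE. Mvd, Sqle and Abca1 lie farthest to the right and Npc1 farthest to the left, on both platforms.

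The groups did not overlap, meaning that every treated mouse lay on the same side of every untreated mouse, for 9 higher and 3 lower members. Over all genes tested this held for 17.6% upward and 16.2% downward. The share of members called changed little between tables. With Illumina reads, 11 members were higher and 4 lower with each of the 3 aligners, against 23.7% and 23.9% of all genes with GSNAP and 22.9% and 24.4% with STAR + Bowtie2. With Ion Torrent reads and STAR, 11 were higher and 4 lower, against 20.3% and 21.8% of all genes. Ion Torrent reads gave 10 higher and 4 lower with GSNAP (22.5% and 23.9% of all genes) and with STAR + Bowtie2 (22.8% and 24.0% of all genes). The member that lost its call was Pmvk. In all, 10 members were higher and 4 lower in all 6 tables, and 12 were called in none. The shares of all genes called in all 6 tables or in none were not computed, so these counts have no background. All 6 tables hold the same 10 mice, so they are repeat measurements and not further replicates.

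Liver RNA is a mixture of cell types, and in bulk samples fewer cells of a type and less RNA per cell cannot be told apart. All 7 tested neutrophil markers were higher after IL-1β, among them S100a8 and S100a9, and their summed level was 2.22 to 6.83 CPM in untreated and 50.9 to 115 in treated mice. Of 6 hepatocyte markers, 3 were lower (Alb, Apoc3 and Cps1) and Tat was higher, with a summed level of 83700 to 104000 in untreated and 63600 to 77300 in treated mice. Of 7 Kupffer cell markers, 1 was higher and 2 were lower, with a sum of 118 to 202 against 66.7 to 157. Of the other lists, monocyte markers had 2 higher and 1 lower of 5, endothelial markers 1 and 2 of 5, stellate cell markers 0 and 2 of 5, T and B cell markers 0 and 1 of 3 tested, and cholangiocyte markers 2 and 0 of 4. No marker was at 0 in every library. The part of these shifts in the members' changes was not tested.

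For a subset of genes the stretch before the transcription start is shown, because genes driven by SREBP2 are known to carry sites for the helper factors NF-Y and Sp1 close to the start. Windows from RefSeq (GRCm38.p6, 250 bases before to 50 bases after each annotated start) matched 21 of the 28 genes. Those without a window were Abcg1, Fdft1, Fdps, Npc1, Soat2, Sqle and Stard4. Shown 5′ to 3′ are the 250 bases before the start of 3 genes that were higher after IL-1β and carry both motifs (Mvd, Lss and Srebf2), of the lower enzyme gene Sc5d, and of Abca1. Capitals mark CCAAT (NF-Y) and GGGCGG (Sp1) on either strand, neither of which holds the other.
Mvd: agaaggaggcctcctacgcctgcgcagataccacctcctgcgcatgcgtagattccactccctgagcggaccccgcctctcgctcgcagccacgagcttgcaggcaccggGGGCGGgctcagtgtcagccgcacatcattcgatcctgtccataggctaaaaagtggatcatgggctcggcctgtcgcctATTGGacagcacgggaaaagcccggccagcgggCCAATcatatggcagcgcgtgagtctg
Lss: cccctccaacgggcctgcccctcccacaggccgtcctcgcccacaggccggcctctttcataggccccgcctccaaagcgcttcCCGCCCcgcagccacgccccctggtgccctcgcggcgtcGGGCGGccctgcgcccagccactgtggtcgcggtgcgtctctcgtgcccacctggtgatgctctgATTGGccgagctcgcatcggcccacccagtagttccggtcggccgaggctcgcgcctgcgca
Srebf2: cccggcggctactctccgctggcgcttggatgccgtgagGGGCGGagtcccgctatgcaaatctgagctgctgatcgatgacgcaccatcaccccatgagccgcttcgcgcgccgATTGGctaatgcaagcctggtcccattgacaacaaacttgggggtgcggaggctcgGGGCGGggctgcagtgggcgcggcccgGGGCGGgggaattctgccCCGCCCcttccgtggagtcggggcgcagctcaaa
Sc5d: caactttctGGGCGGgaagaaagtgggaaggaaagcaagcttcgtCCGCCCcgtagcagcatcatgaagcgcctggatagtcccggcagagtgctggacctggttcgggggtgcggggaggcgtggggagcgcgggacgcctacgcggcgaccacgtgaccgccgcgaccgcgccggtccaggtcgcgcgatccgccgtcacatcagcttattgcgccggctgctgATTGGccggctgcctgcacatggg
Abca1: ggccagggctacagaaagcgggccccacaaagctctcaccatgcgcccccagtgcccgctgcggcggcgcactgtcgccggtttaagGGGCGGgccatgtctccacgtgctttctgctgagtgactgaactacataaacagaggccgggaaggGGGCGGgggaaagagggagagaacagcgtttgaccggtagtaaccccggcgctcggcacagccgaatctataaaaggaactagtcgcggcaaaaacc
These stretches lie at chr8:122443423-122443672 for Mvd, chr10:76531355-76531604 for Lss, chr15:82147019-82147268 for Srebf2, chr9:42264301-42264550 for Sc5d and chr4:53159896-53160145 for Abca1 (GRCm38.p6). Mvd has 2 CCAAT matches and 1 GGGCGG match in the stretch shown, Lss 1 and 2, Srebf2 1 and 4, Sc5d 1 and 2, and Abca1 0 and 2.

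Over the whole windows, CCAAT was found in 18 of 21 members, or 85.7%, and in 41.1% of 27025 genes. GGGCGG was found in 20 of 21, or 95.2%, and in 38.2% of all genes. A gene was counted if any of its windows held the motif, and some members have more than 1 window. For Insig2 the motifs lay in different windows. Neither the base composition of the windows nor expression in liver was matched. With 2 lower members that have a window, a link between motif and direction of change cannot be read from these counts. CCAAT was in 8 of 9 higher members with a window, in 1 of 2 lower ones and in 8 of 9 not called, and GGGCGG was in 8, 2 and 9 of them. The 3 members without CCAAT were Abca1, Acat2 and Scap, and Pmvk was the member without GGGCGG. The exact letters TCACNCCAC, 1 form of the sterol regulatory element core, occurred in 1 member, Hmgcs1, and in 1.4% of all genes. An exact direct repeat of AGGTCA with 4 bases between the copies, a form bound by the oxysterol receptors LXR, occurred in none of the 21. It occurred in only 4 of 27025 genes, so its absence from the members carries little information. Only these exact letters were searched, and sites that vary from them were missed. A gene without a match, Abca1 among them, may therefore still hold a sterol regulatory or LXR element in its window. These letter matches describe these windows only.

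The mevalonate section runs from acetyl-CoA to farnesyl diphosphate. Of its 6 tested genes 4 were higher and 2 were not called. Values per mouse are given in the order UNT_9574, UNT_9575, UNT_9576, UNT_9580 and UNT_9584 for untreated and ILB_9577, ILB_9578, ILB_9579, ILB_9582 and ILB_9583 for treated mice. Mvd (chr8:124957496-124967322, minus strand, mm9) encodes the decarboxylase that makes isopentenyl diphosphate. Its level was 14.7, 9.28, 16.8, 9.60 and 6.23 CPM in the untreated and 68.1, 51.7, 45.3, 37.5 and 50.4 in the treated mice. The lowest treated mouse stood above the highest untreated mouse. The means were 11.3 ± 4.31 and 50.6 ± 11.3 (SD), a log2 fold change of 2.16 (SE 0.23) and a 4.46-fold higher level (adjusted p = 2.34e-06), the largest change among the members. Ion Torrent levels of Mvd with STAR were 14.7 to 29.1 in untreated and 57.5 to 94.4 in treated mice, with a log2 fold change of 1.76.

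Fdps (chr3:88897514-88905881, minus strand, mm9), which joins isoprene units into farnesyl diphosphate, had 160.4, 92.2, 192, 202 and 199 CPM in untreated and 364, 341, 353, 292 and 257 in treated mice. Untreated mouse UNT_9575 was far below the other 4, and the groups did not overlap. The log2 fold change of Fdps was 0.93 (SE 0.18) (adjusted p = 0.000634). Idi1, the isomerase that supplies one of the 2 isoprene units, stood at 78.8, 25.03, 39.5, 44.7 and 48.9 in untreated and 83.6, 93.2, 88.3, 85.5 and 74.1 in treated mice. Here untreated mouse UNT_9574 lay among the treated mice and mouse UNT_9575 was the lowest. The log2 fold change of Idi1 was 0.84 (SE 0.21) (adjusted p = 0.00441). Pmvk, which adds the second phosphate to mevalonate, measured 25.3, 19.3, 31.2, 33.3 and 24.0 in untreated and 40.0, 36.2, 48.7, 43.4 and 31.9 in treated mice. The ranges overlapped at 31.9 to 33.3. Its log2 fold change was 0.59 (SE 0.15) (adjusted p = 0.00485), and with Ion Torrent reads it was 0.36 with GSNAP (adjusted p = 0.096) and 0.39 with STAR + Bowtie2 (adjusted p = 0.0648).

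Acat2, which starts the pathway by joining acetyl-CoA units, and Mvk, which adds the first phosphate to mevalonate, were not called. Acat2 ranged from 47.8 to 77.9 CPM in untreated and from 46.0 to 69.5 in treated mice, with log2 fold changes of -0.15 to -0.11 over the 6 tables. Mvk was low, at 4.46 to 16.3 in untreated and 8.03 to 15.7 in treated mice. Its log2 fold change was 0.09 (SE 0.28) here and had the opposite sign with Ion Torrent reads, between -0.13 and -0.09.

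From squalene to lanosterol, 2 of 3 genes were higher. Sqle (chr15:59146632-59162747, plus strand, mm9) encodes squalene epoxidase, a slow step of the pathway that needs oxygen. It rose from 92.9, 30.0, 73.7, 50.1 and 47.4 CPM in untreated mice to 223, 208, 181, 168 and 182 in treated mice. The treated mice lay close together and the untreated mice spread over a 3.10-fold range, with no overlap. The means were 58.8 ± 24.6 and 192 ± 22.4 (SD), a 3.27-fold higher level with a log2 fold change of 1.71 (SE 0.23) (adjusted p = 2.11e-05).

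Lss (chr10:75994333-76019883, plus strand, mm9), the cyclase that folds oxidized squalene into lanosterol, had 83.7, 65.4, 77.8, 54.0 and 50.2 in untreated and 139, 133, 121, 109 and 125 in treated mice. The groups did not overlap, and mice UNT_9580 and UNT_9584 were the lowest of the untreated. The genes whose exons overlap those of Lss and Scap on the opposite strand had 0.3 and 0 reads on average. Lss had a log2 fold change of 0.92 (SE 0.14) (adjusted p = 6.02e-05). Fdft1, squalene synthase, which commits farnesyl units to sterols, acts before both in the pathway and was not called. It ranged from 70.9 to 128 in untreated and from 92.4 to 126 in treated mice, with log2 fold changes of 0.03 to 0.17 over the 6 tables. An exon of Fdft1 overlaps one of Ctsb on the opposite strand, and whether the counting used strand is not stated. Ctsb had 6018 reads on average and a log2 fold change of -0.04 (adjusted p = 0.805).

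**Figure D2:**
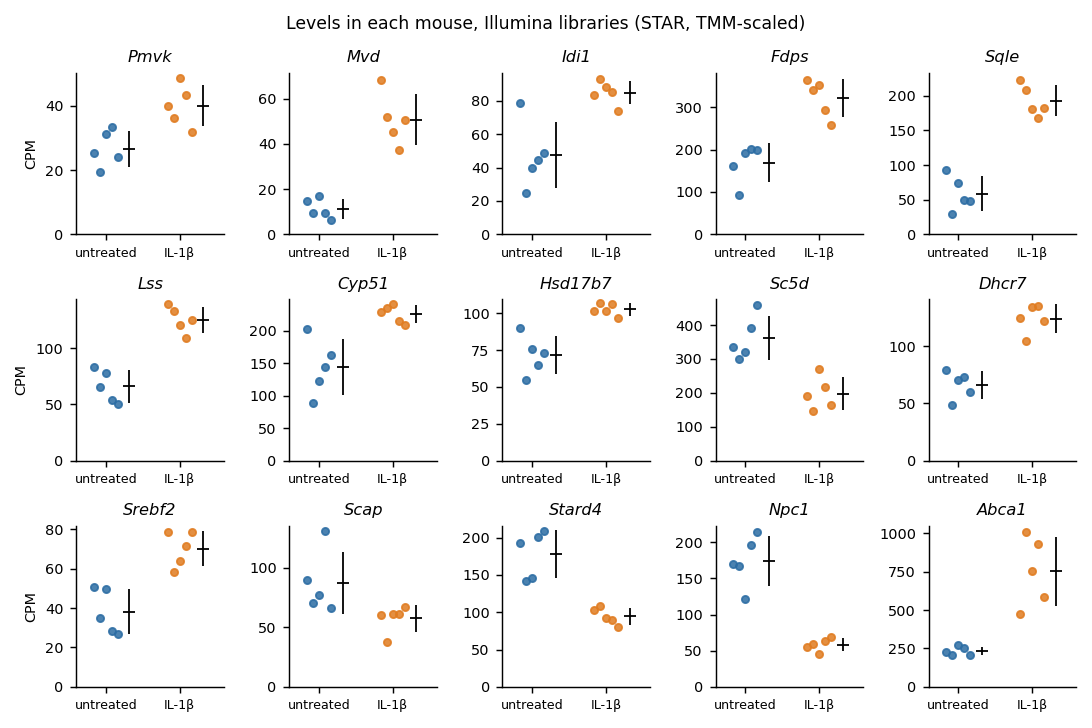
Each panel shows 1 of the 15 called members, with CPM on the vertical axis from 0, 1 point per mouse for untreated (blue) and IL-1β-treated (orange) livers, and black bars for the mean and SD. The groups are apart in 12 panels and overlap for Pmvk, Idi1 and Scap.

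From lanosterol to cholesterol, 3 of 7 genes were higher, 1 was lower and 3 were not called. Dhcr7 (chr7:151009050-151034315, plus strand, mm9), the reductase of the last step, measured 79.1, 48.3, 70.9, 73.1 and 59.9 CPM in untreated and 125, 105, 134, 135 and 122 in treated mice. All treated mice were above all untreated mice. The log2 fold change of Dhcr7 was 0.91 (SE 0.13) (adjusted p = 3.66e-05). Cyp51, which takes a methyl group off lanosterol, had 204, 88.7, 123, 145 and 163 in untreated and 229, 236, 241, 216 and 209 in treated mice. The highest untreated mouse, UNT_9574, fell just short of the lowest treated mouse. Its log2 fold change was 0.65 (SE 0.17) (adjusted p = 0.00493). Hsd17b7, a ketosteroid reductase that acts in the removal of methyl groups, measured 90.1, 54.8, 75.8, 65.2 and 73.3 in untreated and 102, 107, 102, 106 and 96.7 in treated mice. The treated values lay within a 1.11-fold range, above all untreated values. For Hsd17b7 the log2 fold change was 0.52 (SE 0.12) (adjusted p = 0.00194).

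Sc5d (chr9:42062260-42072383, minus strand, mm9), a desaturase just before the last step, moved the other way. It had 336, 299.7, 320.2, 390.3 and 460.1 CPM in untreated and 191, 145, 269.8, 217 and 164 in treated mice. The highest treated mouse, ILB_9579, was below the lowest untreated mouse, UNT_9575. Means of 361 ± 64.6 and 197 ± 48.9 (SD) gave a 1.83-fold lower level, with a log2 fold change of -0.87 (SE 0.16) (adjusted p = 0.000439). The next enzyme, Dhcr7, was higher in the same 5 treated mice, so neighboring steps of 1 pathway changed in opposite directions.

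Tm7sf2, a sterol reductase, Nsdhl, a dehydrogenase that acts with Hsd17b7, and Ebp, a sterol isomerase, were not called in any table. Ebp had 171 to 228 CPM in untreated and 180 to 206 in treated mice, and its log2 fold changes were -0.08 to -0.04 over the 6 tables. Tm7sf2 had log2 fold changes of -0.24 to -0.19 and Nsdhl of 0.11 to 0.22. Exons of Tm7sf2 overlap 1110014N23Rik on the same strand, which had 129 reads on average.

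Mouse UNT_9575 was the lowest untreated mouse for 12 of the 16 enzymes in each of the 6 tables and the highest for none. No other untreated mouse held 1 end to this extent. Mouse UNT_9574 was the highest for 8 or 9 of the 16 and the lowest for 1 or 2, and with Illumina reads mouse UNT_9584 was the highest for 4 and the lowest for 3. In the treated group, with STAR, mouse ILB_9577 was the highest for 6 enzymes and mice ILB_9582 and ILB_9583 were each the lowest for 6 with Illumina reads, while with Ion Torrent reads mouse ILB_9579 was the highest for 6 and mouse ILB_9578 the lowest for 7. Levels also spread more among the untreated mice. The highest untreated mouse exceeded the lowest by a median of 1.77-fold over the 16 enzymes, against 1.39-fold in treated mice, and the untreated spread was the wider for 15 enzymes, all but Sc5d. Among 7891 genes above 5 CPM in every library, the medians were 1.4-fold and 1.33-fold, and 5013 had the wider spread in untreated mice. Genes of 1 pathway in the same 5 livers are not independent, so these are descriptions without a test.

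**Figure D3:**
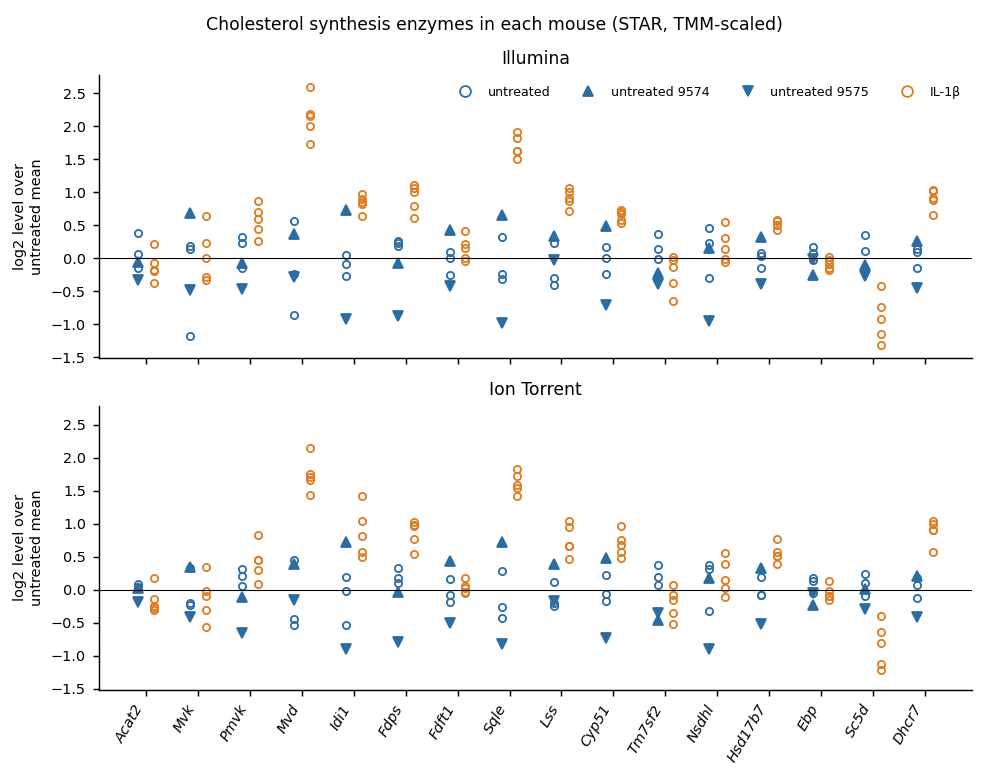
For each of the 16 enzymes, in pathway order, the log2 level of every mouse relative to the untreated mean is shown for Illumina (top) and Ion Torrent (bottom), with untreated mice in blue and IL-1β-treated mice in orange. Untreated mouse UNT_9575 (downward triangles) lies at the bottom of the untreated group for 12 enzymes on each platform, and mouse UNT_9574 (upward triangles) at the top for 8.

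Of the 4 sterol sensing genes, 1 was higher, 1 was lower and 2 were not called. Srebf2 (chr15:81977696-82035806, plus strand, mm9) had 50.7, 35.2, 49.6, 28.4 and 26.7 CPM in untreated and 78.7, 58.3, 64.0, 71.6 and 78.6 in treated mice. No treated mouse reached down to the untreated range. The log2 fold change of Srebf2 was 0.88 (SE 0.17) (adjusted p = 0.000691), and it lay between 0.64 and 0.88 over the 6 tables. Scap, the escort protein of SREBP2, measured 89.9, 70.1, 77.3, 131 and 66.3 in untreated and 60.4, 38.0, 61.2, 61.3 and 66.9 in treated mice. Untreated mouse UNT_9580 was far above the others and treated mouse ILB_9578 far below, and the groups overlapped between 66.3 and 66.9. Scap had a log2 fold change of -0.59 (SE 0.18) (adjusted p = 0.0156), and of -0.82 at the lowest of the 6 tables. With Ion Torrent reads and STAR, untreated mice had 114 to 154 CPM and treated mice 43.1 to 98.0. There mouse UNT_9584, at 145, was near mouse UNT_9580, at 154. With Ion Torrent reads the groups did not overlap with any aligner.

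Insig1 and Insig2 encode the retention proteins. Insig1 is known to be switched on by SREBP2 itself. Insig1 stood at 322, 374, 341, 168 and 297 CPM in untreated and 292, 282, 299, 279 and 276 in treated mice. The treated values lay within a 1.08-fold range, inside the 2.22-fold range of the untreated mice. Insig2 had 93.4, 79.6, 74.2, 127 and 176 in untreated and 91.4, 76.5, 127, 141 and 75.1 in treated mice, with ranges that overlapped widely. The log2 fold changes were -0.07 (SE 0.16) for Insig1 (adjusted p = 0.763) and -0.11 (SE 0.23) for Insig2 (adjusted p = 0.767). Over the 6 tables they reached 0.11 and 0.01, so neither sign was stable. The log2 ratio of Insig1 to Insig2 reads within a library was 1.48 ± 0.85 in untreated and 1.53 ± 0.40 in treated mice (SD, n = 5), a difference of 0.06 (two-sided exact permutation test, p = 0.873, adjusted over the 3 ratios tested 0.873).

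Of the 5 genes of transport, storage and receptor turnover, 2 were lower and 3 were not called. Npc1, the lysosomal membrane protein that releases cholesterol, had 169.8, 168, 122, 197 and 215 CPM in untreated and 54.5, 58.7, 45.7, 63.5 and 69.2 in treated mice. The highest treated mouse had 69.2 and the lowest untreated mouse 122. The means were 174 ± 35.3 and 58.3 ± 8.92 (SD), a 2.99-fold lower level with a log2 fold change of -1.58 (SE 0.15) (adjusted p = 7.8e-07). Ion Torrent levels of Npc1 with STAR were 126 to 201 in untreated and 46.9 to 69.1 in treated mice. Exons of Npc1 overlap 3110002H16Rik and Gm15956 on the opposite strand. The former had 249 reads on average and a log2 fold change of -0.67 (adjusted p = 0.000235), and the latter 0.6 reads.

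Npc2, the soluble partner that hands cholesterol to Npc1, measured 58.8, 62.0, 67.6, 58.0 and 58.5 in untreated and 59.4, 57.8, 54.0, 62.3 and 49.1 in treated mice. These ranges overlapped, and the log2 fold change was -0.11 (SE 0.09) (adjusted p = 0.367). The log2 ratio of Npc1 to Npc2 reads was 1.49 ± 0.40 in untreated and 0.04 ± 0.28 in treated mice (SD, n = 5). It was lower by -1.45 (two-sided exact permutation test, p = 0.00794, adjusted over 3 ratios 0.0119), and 0.00794 is the smallest p that 5 against 5 mice allow. The ratio needs no scaling between libraries, and all treated mice lay below all untreated mice.

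Stard4, a soluble protein that moves sterol between membranes, had 193, 142, 146, 201 and 209 CPM in untreated and 103, 108, 91.9, 89.6 and 80.3 in treated mice. The groups did not overlap. The log2 fold change of Stard4 was -0.91 (SE 0.13) (adjusted p = 3.58e-05). Soat2, which stores cholesterol as esters in hepatocytes, was just short of the threshold. It had 29.0 to 42.6 in untreated and 37.1 to 46.1 in treated mice, with a log2 fold change of 0.30 (SE 0.12) (adjusted p = 0.0518). Mylip, a ubiquitin ligase that removes lipoprotein receptors, was low, at 8.27 to 10.3 in untreated and 4.17 to 9.37 in treated mice, with a log2 fold change of -0.33 (SE 0.20) (adjusted p = 0.184).

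Of the exporters, Abca1 was higher and Abcg1 was not called. Abca1 (chr4:53043659-53172767, minus strand, mm9), which loads cholesterol onto lipid-poor apolipoproteins, measured 227, 209.9, 269, 252.5 and 207 CPM in untreated and 476, 1009.5, 755, 928 and 586 in treated mice. The untreated mice lay within a 1.30-fold range and the treated mice spread 2.12-fold, all above them. The means were 233 ± 26.9 and 751 ± 224 (SD), a 3.22-fold higher level with a log2 fold change of 1.69 (SE 0.18) (adjusted p = 2.55e-06). The estimate was 1.69 to 1.70 in all 6 tables.

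Abcg1, which loads cholesterol onto mature particles, had 4.58, 4.60, 3.61, 2.84 and 2.04 in untreated and 3.32, 4.83, 2.28, 2.68 and 2.32 in treated mice. It was the member with the fewest reads, 36.2 to 62.4 on average per table, and its groups overlapped. The log2 fold change of Abcg1 was -0.20 (SE 0.26) (adjusted p = 0.586). The log2 ratio of Abca1 to Abcg1 reads was 6.08 ± 0.50 in untreated and 7.91 ± 0.52 in treated mice (SD, n = 5). It rose by 1.83 (two-sided exact permutation test, p = 0.00794, adjusted over 3 ratios 0.0119), and every treated mouse was above every untreated mouse.

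**Figure D4:**
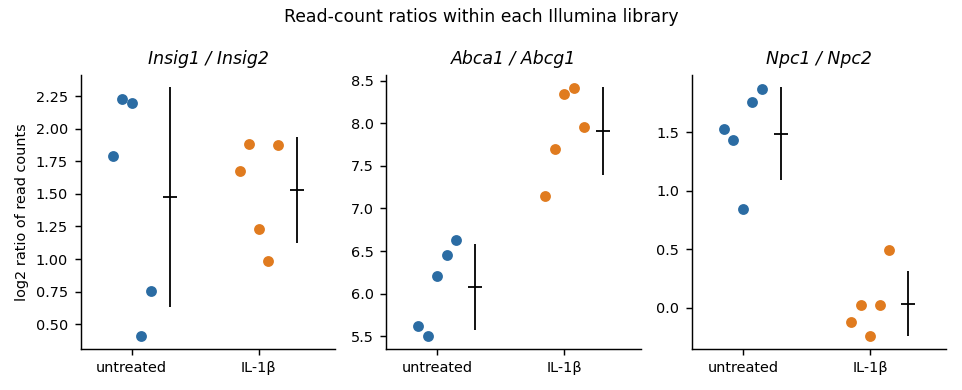
The log2 ratio of the read counts of 2 related genes within each Illumina library is shown for untreated (blue) and IL-1β-treated (orange) mice, 1 point per mouse, with the mean and SD in black. The groups overlap for Insig1 and Insig2 and are apart for the other pairs.

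Levels of different members were compared per kilobase of annotated exon, counting the exons of all transcripts of a gene. This length was 10725 bases for Npc1 and 5546 for Sqle, whose longest coding transcripts have 5224 and 2758. For Fdps and Mvd the length and the longest transcript were equal, at 1233 and 1761. Places between genes therefore depend on the annotation as well as on reads. In untreated livers Sc5d was the highest, at 155 CPM per kilobase, followed by Fdps (137), Insig1 (114) and Ebp (88.0). The gaps between Sc5d and Fdps and between Fdps and Insig1 were smaller than the SD of Fdps between mice (37.4). These were the leading 4 genes in all 6 tables, but their order depended on the table. With Illumina GSNAP Fdps had 76.8, below Insig1 (111) and Ebp (90.5), and with Ion Torrent STAR Fdps (117) was above Sc5d (106). In the Illumina STAR table the next, Cyp51, had 33.7, and the lowest were Mvk (3.79), Mylip (2.995) and Abcg1 (0.87). After IL-1β the order of the leading genes was Fdps (261), Insig1 (108), Sc5d (84.8), Ebp (83.2) and Abca1 (72.5), with Fdps in place 1 and Abca1 in place 5 in all 6 tables. Abca1 thus moved from place 12 to place 5 of 27, Sqle from 21 to 8 and Mvd from 23 to 12, while Npc1 moved from 18 to 24 and Stard4 from 7 to 20. Sc5d and Ebp in treated mice differed by less than the spread of Sc5d between mice.

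The rank test with Benjamini-Hochberg adjustment, used in the study, was run on the deposited counts. It called 7 members higher (Abca1, Dhcr7, Fdps, Lss, Mvd, Sqle and Srebf2), against 14.3% of all genes, and 6 lower (Ebp, Npc1, Npc2, Sc5d, Scap and Stard4), against 25.4%. On counts divided by the TMM library size it called 11 higher and 4 lower, against 21.0% and 20.0%, and these were the 15 members that edgeR called. An exact permutation distribution, which ties do not disturb, also gave 7 and 6 on the deposited counts. In edgeR, leaving out the TMM scaling moved the log2 fold change of all genes by a median of -0.13. That fit still divides by library totals, which the rank test on deposited counts does not. The rank test called Npc2 and Ebp on the deposited counts and not on the scaled ones. With edgeR and no scaling beyond library totals the same 15 members were called as with TMM scaling.

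A difference between the platforms in the response to IL-1β was also tested. The platform-by-treatment term, the difference in log2 fold change between Ion Torrent and Illumina with each mouse as a block, was called for 0 of 27 members with STAR (0.00642% of all genes), with GSNAP (0.0642%) and with STAR + Bowtie2 (0.077%). At an unadjusted p below 0.05 there were 3, 5 and 2 members. The share of all genes at that threshold was not computed, so these counts have no background to be read against. With STAR the differences ran from -0.39 to 0.19. The lowest was that of Mvd, with a 95% interval of -0.61 to -0.17 (edgeR adjusted p = 0.653), and the highest that of Insig1, with an interval of 0.03 to 0.34 (edgeR adjusted p = 0.696). Scap had -0.26, with an interval of -0.49 to -0.03. The intervals hold no adjustment for the number of genes.

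For Fdps and Idi1, which have near-identical copies in the genome, the number of reads depended on the aligner. Fdps has 6 copies elsewhere in the mm9 genome with at least 90% identity over at least 50% of its transcript, of which the pseudogene Gm3571 is 98.8% identical. Idi1 has 1, the pseudogene Gm13502 (99.3%), Fdft1 has 1, Gm6781 (97.4%), and Insig1 has 1 with no annotated gene (97.9%). With Illumina reads the row of Fdps held 97.5% of the reads of Fdps, Gm3571 and Gm8163 with STAR and 66.3% with GSNAP. The row of Idi1 held 93.6% of the reads of Idi1 and Gm13502 with STAR and 44.0% with GSNAP. With Ion Torrent reads, Idi1 and Gm13502 together held 228.6 reads on average with STAR, 603.7 with GSNAP and 1200 with STAR + Bowtie2. The row of Idi1 held 99.0%, 36.0% and 58.4% of these, so a high share did not mean a high sum. With the 3 aligners of the Illumina reads, Fdft1 and Insig1 had untreated means of 91.9 to 95.2 CPM for Fdft1 and 294 to 304 CPM for Insig1. Reads given to Gm6781 also depended on the aligner, at 12.3 to 70.0 on average with Illumina. With Ion Torrent they were 1.0 with STAR, 143 with GSNAP and 119.6 with STAR + Bowtie2. Fdft1 itself had 992.8, 1144.2 and 1241.8 in those Ion Torrent tables. Which locus the reads of Fdps and Idi1 came from cannot be told from counts. After summing the rows of gene and pseudogenes, the log2 fold change of Fdps was 0.86 to 0.93 and that of Idi1 0.82 to 0.97 over the 6 tables, and both remained called in each.

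**Figure D5:**
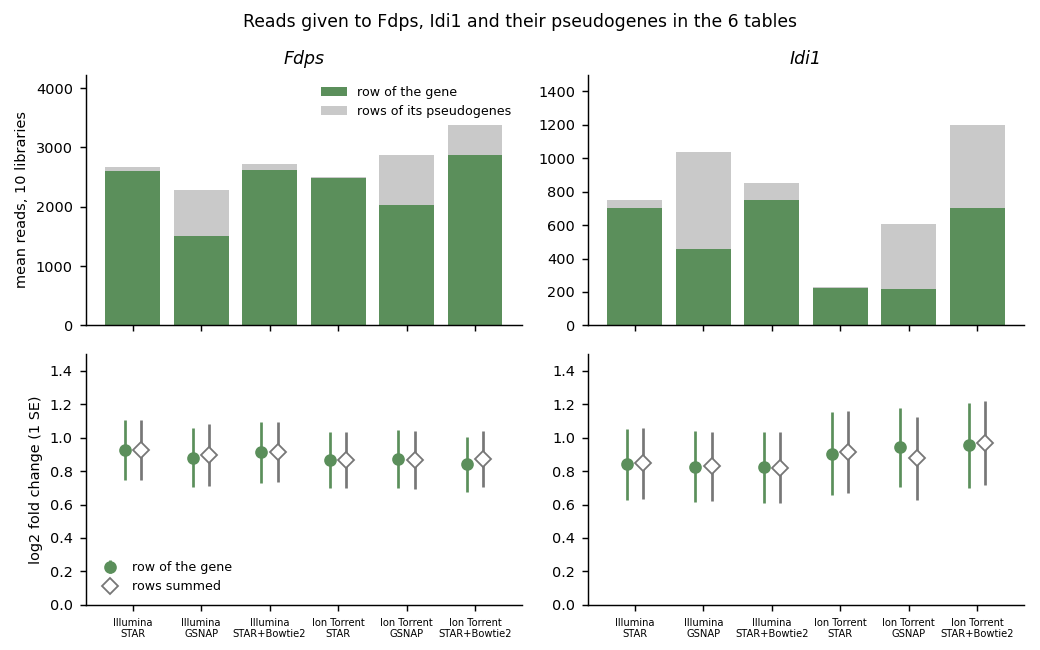
The top panels show the mean reads over 10 libraries that each of the 6 tables gives to Fdps or Idi1 (green) and to their annotated pseudogenes (grey), and the bottom panels the log2 fold change with 1 SE for the gene's own row and for the summed rows. The split of reads and their sum differ between aligners, and the fold changes lie between 0.82 and 0.97.

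A list of 30 other genes of sterol metabolism was tested beside the members. Of these, 10 were higher, 11 lower and 9 not called, with a median log2 fold change of -0.07, against 22.7% higher and 22.9% lower over all genes tested. The higher count was 4 without scaling, 5 with Ion Torrent STAR and 6 with Ion Torrent GSNAP. Of all genes, 20.3% were higher with Ion Torrent STAR and 22.5% with Ion Torrent GSNAP. The share without scaling is not given, and that setting moved the log2 fold change of all genes by a median of -0.13. In all 6 tables, 5 of the 30 were higher and 11 lower, and the share of all genes for this was not computed. Srebf1, which drives fatty acid synthesis, was lowest at a log2 fold change of -2.23 (SE 0.39, adjusted p = 0.000282). Its untreated levels ran from 64.0 to 363 CPM, with mouse UNT_9584 the lowest, and its treated levels from 27.6 to 58.1. Abcg8, a half-transporter that sends cholesterol into bile, had a log2 fold change of -1.81 (SE 0.18, adjusted p = 1.34e-06). Lpcat3, which remodels phospholipids, had -1.49 (SE 0.12, adjusted p = 1.58e-07).

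Stard5, a sterol carrier related to Stard4, had a log2 fold change of -1.37 (adjusted p = 6.34e-06). Lipa, the lysosomal lipase that frees cholesterol upstream of Npc2 and Npc1, had -1.09 (adjusted p = 3.13e-05). Erlin1, a membrane protein of the endoplasmic reticulum that takes part in sterol sensing, had -1.03 (adjusted p = 3.05e-05). On the upward side, Osbp, an oxysterol-binding protein, had 1.07 (adjusted p = 7.77e-06) and Nr1h2, which encodes one of the LXR proteins, had 0.96 (adjusted p = 0.000516).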

How the data were processed

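Liver RNA of 10 mice was sequenced on 2 platforms, which gave 20 libraries. The count values deposited by the authors are whole reads per gene in 6 tables, with reads aligned to mm9 by GSNAP, STAR (2.5.1b) or STAR followed by Bowtie2 (2.2.9), per the submitters' processing notes. With PORT they removed rRNA and mitochondrial reads, assigned reads to Ensembl genes and re-sampled each table's libraries to a common depth, so tables were compared only through treatment effects. Whether strand was used in counting is not given in the sources used here. Totals were 10568530 to 16439683 per library. All 60 count columns were used.

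Members were found by symbol and, like the gene lists, were chosen with earlier results of these data known. Genes that reached 5 reads in a minimum of 5 libraries of any table (15578, of which 500 have no read in the Illumina STAR table) were fitted with edgeR 4.0.16 (R 4.3.3): TMM scaling, quasi-likelihood test, Benjamini-Hochberg adjustment, threshold 0.05, both groups of 1 table. The rank test and exact permutation tests were two-sided, with 0.5 added to reads in ratios. The platform-by-treatment term used 20 libraries with the mouse as a block, since both libraries of a mouse share its RNA. Their deviations from the group means correlated at 0.575 to 0.719 in 9 mice and 0.242 in mouse UNT_9584 (STAR). Alternatives were other scaling, filters, tools (limma 3.58.1, DESeq2 1.42.0), tables and each mouse left out. All members are named by role, with values per mouse for those called in Illumina STAR with 1 direction in 6 tables and for 3 ratio pairs. Up to 8 other sterol genes called 1 way in 6 tables are named by size of change. Exon lengths and positions are from GENCODE M1 (NCBIM37), copies from BLAST+ 2.17.0 and promoter windows from RefSeq. Scripts were tested on simulated data.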

Additional observations from a re-analysis of the deposited data

Results flagged for a closer look

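In treated mouse ILB_9578 Scap had 38.0 CPM, while the other 4 treated mice had 60.4 to 66.9. The gap to the nearest mouse was 0.777 of the group's range, above the limit of 0.71 that Dixon's test sets for 5 samples. Of the 54 groups looked at (27 genes in 2 treatments), this was 1, and chance alone flags about 1 in 20. With Ion Torrent reads and STAR, mouse ILB_9578 was again the lowest, at 43.1 CPM. The other treated mice spread more widely there, from 74.0 to 98.0, and the limit was not applied to those libraries.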

How the results depend on the processing

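The 11 higher and 4 lower members were also called with RLE scaling, no scaling beyond library totals, no filter, DESeq2 and limma-voom. They were also called without each mouse in turn, and in the other Illumina tables. Soat2 was added with DESeq2, limma-voom, the filter in this table alone, and without untreated mouse UNT_9580 or treated mouse ILB_9578 (adjusted p 0.00548 to 0.0479). Without 1 mouse the higher members numbered 11 to 12 and the lower ones 4. Ion Torrent tables without untreated mouse UNT_9584, a choice made after seeing the data, gave 15 to 16 called members. With the rank test 11 members were higher on TMM-scaled counts. Without 1 mouse it called 0 to 6 higher and 0 to 6 lower, since 5 against 4 mice allow no exact p below 0.0159 and the lowest q over all genes was 0.0494 to 0.0536. Only the fit without untreated mouse UNT_9584 fell below 0.05.

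The higher genes among the 30 others were 4 without scaling, 5 with Ion Torrent STAR and 6 with Ion Torrent GSNAP. Without mouse UNT_9584 the Ion Torrent tables gave 5 with STAR, 5 with GSNAP and 6 with STAR + Bowtie2. Without 1 mouse in Illumina STAR they were 7 to 9. No share over all genes is given for the fits without scaling or without a mouse, here or for the member counts above. Signs turned only for members that were not called. Mvk was -0.047 without scaling and -0.094, -0.131 and -0.119 with Ion Torrent STAR, GSNAP and STAR + Bowtie2, and -0.094 to 0.321 without 1 mouse. Insig1 was 0.111, 0.111 and 0.086 in those tables and -0.224 to 0.017 without 1 mouse, Insig2 was 0.006 with Ion Torrent STAR + Bowtie2 and -0.26 to 0.129 without 1 mouse, and Acat2 was -0.202 to 0.003. The difference in the ratio of Insig1 to Insig2 was -0.213 to 0.243 without 1 mouse. The causes were not tested. The other ratios kept their direction and stayed below 0.05 in each alternative. Without the replicate block 0 members had a platform-by-treatment term, as in the paired fit and without each mouse.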
